A study of Mus musculus with 8 samples.

Results

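The genes of glucose uptake, glycolysis, lactate exchange and pyruvate entry into mitochondria were followed in 8 RNA-seq libraries of mouse retina. Members were chosen by symbol: 36 symbols were listed, all 36 were in the table of 24860 genes, and 33 had a mean of at least 1 FPKM over the 8 libraries. FPKM is a gene's fragment count corrected for transcript length and for how much of the library was mapped. The member nearest above that limit was Slc16a7, with a mean of 1.57 FPKM, and the nearest below it was Pfkfb1, with 0.468 FPKM. Slc16a8, a monocarboxylate transporter known from the retinal pigment epithelium, and Pdk4, a pyruvate dehydrogenase kinase, averaged 0.0611 and 0.0834 FPKM and were not tested either. Of the libraries, 4 are AAV2-shCX36, in which a viral vector delivered a hairpin RNA directed at connexin 36, the product of Gjd2 that couples neurons electrically, and 4 are AAV2-scramble, with a scrambled hairpin. The labelled tissue is Retina and the labelled cell type RGCs, retinal ganglion cells, and the labels give no strain, age, injury, time after injection, promoter, sorting or pooling.

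Glycolysis splits glucose into pyruvate. Hexokinase traps glucose in the cell, phosphofructokinase sets the pace of the upper steps, and the PFKFB enzymes make or break the sugar phosphate that activates phosphofructokinase. Lactate dehydrogenase turns pyruvate into lactate, which leaves or enters cells through monocarboxylate transporters held at the membrane by basigin. Pyruvate otherwise enters mitochondria, where pyruvate dehydrogenase or pyruvate carboxylase uses it. The retina is known for making lactate in the presence of oxygen, largely in photoreceptors, whose hexokinase 2 distinguishes them from most neurons of the adult brain.

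The 250 bases upstream of a listed transcription start are shown for 4 members on which the results turn: the 3 that passed the test, and Ldha, whose groups did not overlap. They come from RefSeq on GRCm38.p6, for the first start listed for each gene, on the strand of the gene. RefSeq lists 1 start for Hk2, 3 for Pfkfb2, 2 for Pcx and 2 for Ldha, and the windows shown for Pfkfb2 and Ldha lie inside the longer gene spans of GENCODE given with their values. Capitals mark ACGTG on either strand, a form of the core letters of hypoxia response elements. In the palindrome CACGTG these letters also form an E-box. Other forms of the hypoxia response core were not searched or marked. Overlapping matches run together. For Hk2 the window is chr6:82774455-82774704 on the minus strand, for Pfkfb2 chr1:130715822-130716071 on the minus strand, for Pcx chr19:4510222-4510471 on the plus strand and for Ldha chr7:46845554-46845803 on the plus strand.
Hk2: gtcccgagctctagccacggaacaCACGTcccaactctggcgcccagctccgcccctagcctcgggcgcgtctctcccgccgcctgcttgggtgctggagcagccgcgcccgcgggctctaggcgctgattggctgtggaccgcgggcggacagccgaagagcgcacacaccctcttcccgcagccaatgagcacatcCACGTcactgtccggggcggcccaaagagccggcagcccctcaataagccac
Pfkfb2: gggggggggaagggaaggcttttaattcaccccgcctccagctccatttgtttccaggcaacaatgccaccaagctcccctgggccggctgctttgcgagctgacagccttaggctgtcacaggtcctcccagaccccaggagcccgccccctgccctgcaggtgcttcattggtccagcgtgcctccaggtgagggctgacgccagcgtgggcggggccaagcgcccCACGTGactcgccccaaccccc
Pcx: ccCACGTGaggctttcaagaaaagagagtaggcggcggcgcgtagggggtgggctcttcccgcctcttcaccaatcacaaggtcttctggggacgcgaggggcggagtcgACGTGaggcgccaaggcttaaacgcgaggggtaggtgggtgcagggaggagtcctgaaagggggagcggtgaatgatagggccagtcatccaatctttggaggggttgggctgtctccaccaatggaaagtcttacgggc
Ldha: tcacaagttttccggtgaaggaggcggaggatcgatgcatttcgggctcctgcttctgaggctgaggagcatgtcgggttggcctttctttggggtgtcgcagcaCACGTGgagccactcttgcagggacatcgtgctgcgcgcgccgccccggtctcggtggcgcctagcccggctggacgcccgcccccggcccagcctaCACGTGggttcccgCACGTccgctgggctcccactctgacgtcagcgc
The Hk2 window held 2 such runs, Pfkfb2 1, Pcx 2 and Ldha 3, of which 0, 1, 1 and 2 were the palindrome. The letters were in 13 of the 30 members with a listed promoter, in 16.6% of all 27025 gene promoters and in 21.96% of the 10232 promoters of tested genes. TAATCC, the core letters of sites for the photoreceptor factor CRX, searched on both strands, was in none of the 4 windows shown, in 3 of the 30 (Pfkfb4, Aldoc and Pfkp), in 6.38% of all promoters and in 5.35% of those of tested genes. The runs stood before genes that fell (Hk2, Pfkfb2) and before a gene that rose (Pcx).

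The libraries were not of ganglion cells alone. All 9 ganglion cell markers reached 1 FPKM in every library, and so did all 10 rod and all 8 cone markers listed. AAV2-scramble 1 and 2 stood apart: Tmem119 of microglia had 48.0 and 47.2 FPKM there, against at most 17.1 FPKM in each other library. The sum of 7 bipolar cell markers was 370 and 375 FPKM there, against 112 to 181 FPKM in AAV2-shCX36 and 83.8 and 118 FPKM in AAV2-scramble 3 and 4, and that of 6 oligodendrocyte markers was 30.8 and 92.2 FPKM, against at most 10.8 FPKM in each other library. AAV2-shCX36 1 and 4 carried the most lens transcript, with summed marker FPKM of 184 and 372 against at most 36.4 in each other library. The hairpin's target, Gjd2, had 15.6 ± 1.48 FPKM in AAV2-shCX36 and 27.5 ± 11.3 FPKM in AAV2-scramble (SD, n = 4), a log2 difference of -0.70 with an adjusted p of 0.148 in limma and a two-sided exact permutation p of 0.0286, the smallest that 4 against 4 libraries allow. Gjd2 had 38.7 and 35.9 FPKM in AAV2-scramble 1 and 2, where the bipolar sum was highest, and 17.4 and 18.2 FPKM in AAV2-scramble 3 and 4. With the first 2 controls omitted the Gjd2 difference was -0.19 (adjusted p = 0.245), and the part of bipolar cell RNA in it was not tested. In bulk RNA, fewer cells of a type and less RNA per cell cannot be told apart.

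Together the 33 genes made up 2.06% to 2.12% of all FPKM in AAV2-shCX36 libraries and 1.96% to 2.17% in AAV2-scramble libraries. Within that total, Hk2 and Pfkfb2 fell in AAV2-shCX36 and Pcx rose. The test was limma on log2(FPKM + 1) over 12858 genes with Benjamini-Hochberg adjustment, and differences below are AAV2-shCX36 minus AAV2-scramble on that scale. The 3 called genes were 9.09% of the members, against 4.76% of all genes tested. At an unadjusted p under 0.05 there were 7 members, or 21.2%, against 22.6% of all genes. The groups did not overlap for 5 members, or 15.2%, against 15.9% of all genes (1 higher and 4 lower among members, against 8.85% higher and 7.05% lower of all genes). The last 2 shares lay close to those of all genes, and the first rests on 3 genes. The median difference of the members was 0.02, with 17 higher and 16 lower, and that of all genes was 0.01.

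**Figure D1:**
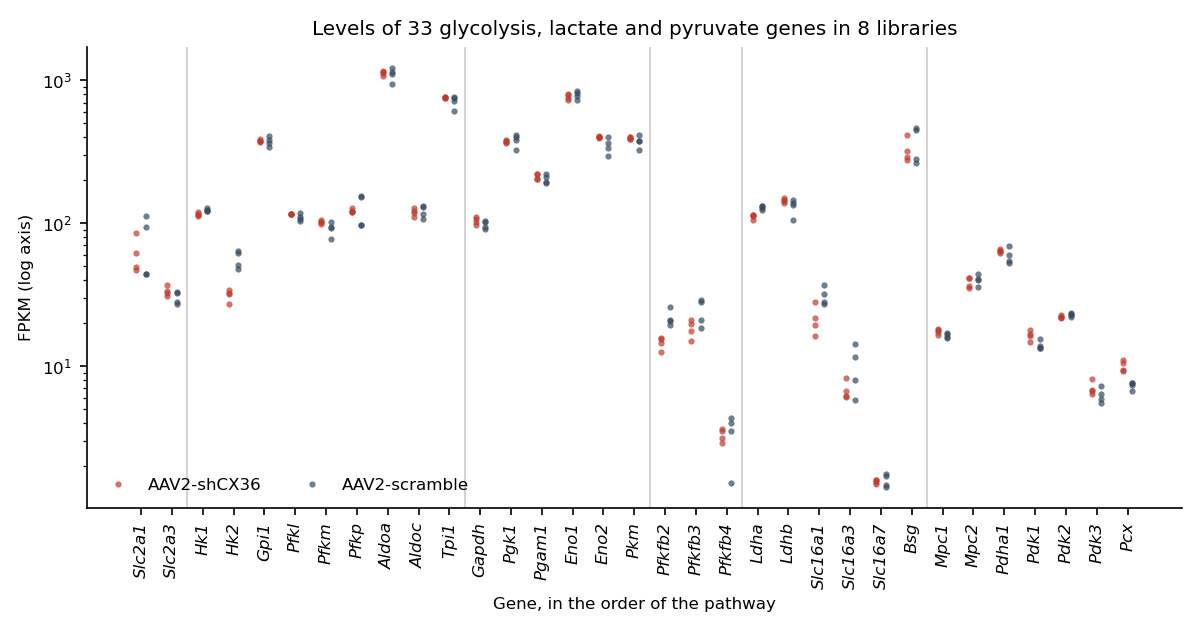
FPKM of the 33 tested members on a log axis, in the order of the pathway, with each of the 4 AAV2-shCX36 libraries (red, left) and 4 AAV2-scramble libraries (dark, right) as a point. Levels run from Slc16a7, near 1.57 FPKM, to Aldoa, near 1116 FPKM, and the groups stand apart without overlap in Hk1, Hk2, Pfkfb2, Ldha and Pcx.

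The glucose transporters did not separate the groups. Slc2a1 (GLUT1, a transporter of vessel endothelium, pigment epithelium and glia among other cells) had 62.3, 47.3, 49.4 and 85.1 FPKM in AAV2-shCX36 1 to 4. In AAV2-scramble 1 to 4 it had 94.2, 112, 44.0 and 44.3 FPKM. The controls thus lay at both ends of the range, and the difference was -0.18 ± 0.33 (SE, adjusted p = 0.782). The summed FPKM of 8 endothelium and pericyte markers was highest in the same 3 libraries as Slc2a1, with 131 in AAV2-shCX36 4 and with 125 and 161 in AAV2-scramble 1 and 2, and otherwise 65.6 to 91.0 in AAV2-shCX36 and 30.8 and 47.0 in AAV2-scramble. Without AAV2-scramble 1 and 2 the Slc2a1 difference was 0.42 (adjusted p = 0.261), whereas omitting AAV2-scramble 3 and 4 gave -0.78 (adjusted p = 0.0314). The part of vessel RNA in these values was not tested. Slc2a3 (GLUT3, the high-affinity transporter of neurons) had 33.4 ± 2.50 FPKM in AAV2-shCX36 and 30.1 ± 2.92 FPKM in AAV2-scramble (adjusted p = 0.320).

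Hexokinase 2 showed the largest difference of the 33 members. Hk2 (GRCm38 chromosome 6, 82725025 to 82774454, minus strand) had 32.4, 27.1, 34.2 and 32.1 FPKM in AAV2-shCX36 1 to 4. The AAV2-scramble 1 to 4 libraries had 47.5, 63.6, 61.6 and 51.2 FPKM. Every AAV2-shCX36 library lay below every AAV2-scramble library, and the AAV2-shCX36 mean of 31.4 ± 3.07 FPKM was 56.2% of the control mean of 56.0 ± 7.86 FPKM. The difference was -0.81 ± 0.11 (SE), with an adjusted p of 0.00667 in limma. Hk2 passed with any single library left out, with an adjusted p between 0.00651 and 0.0267. It also passed without either pair of controls, and had a difference of -0.85 (adjusted p = 0.0788) without AAV2-shCX36 1 and 4. No other gene model was near-identical to its transcript and no annotated exon overlapped its exons.

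Hk1, the hexokinase of most neurons, was the more abundant form in every library and moved little. It had 120, 117, 113 and 114 FPKM in AAV2-shCX36 1 to 4, and 122, 123, 127 and 124 FPKM in AAV2-scramble 1 to 4. The groups did not overlap, but the gap was small and did not pass (difference -0.10 ± 0.05, adjusted p = 0.284). Hk2 made up 18.8% to 23.3% of the FPKM of both hexokinases in AAV2-shCX36 and 27.99% to 34.1% in AAV2-scramble. Their sum was 147 ± 3.82 FPKM in AAV2-shCX36 and 180 ± 9.16 FPKM in AAV2-scramble.

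Summed photoreceptor, Müller glia and horizontal cell transcripts were lower in the same libraries as Hk2. The summed FPKM of 10 rod markers ran from 889 to 1304 in AAV2-shCX36 and from 1451 to 2019 in AAV2-scramble. Of these 7 were called lower and none higher. For 8 cone markers the sums ran from 1667 to 2573 in AAV2-shCX36 and from 2907 to 4407 in AAV2-scramble. Here 3 were called lower and none higher. The sum of 9 Müller glia markers was 374 to 596 FPKM in AAV2-shCX36 and 623 to 1027 FPKM in AAV2-scramble. In this list 5 were called lower and none higher. Of all genes 2.52% were called lower and 2.24% higher. Glul, the largest part of the Müller glia sum, had 128 to 213 FPKM in AAV2-shCX36 and 313 to 535 FPKM in AAV2-scramble. Apoe of that list overlapped, with 109 to 168 FPKM in AAV2-shCX36 and 75.0 to 174 FPKM in AAV2-scramble. Dkk3 and Vim overlapped too, with 58.05 to 91.6 and 59.4 to 100 FPKM in AAV2-shCX36, against 75.4 to 111 and 75.0 to 94.9 FPKM in AAV2-scramble. AAV2-shCX36 2 had the lowest value of Hk2 and of the rod, cone and Müller glia sums. Among the controls AAV2-scramble 2 had the most Hk2 and the most Müller glia transcript, AAV2-scramble 4 the most rod and AAV2-scramble 3 the most cone transcript. The sum of 4 horizontal cell markers was 65.6 to 92.9 FPKM in AAV2-shCX36 and 109 to 115 FPKM in AAV2-scramble, with 1 called lower. That of 7 amacrine cell markers was 41.8 to 52.4 FPKM in AAV2-shCX36 and 52.1 to 57.8 FPKM in AAV2-scramble, a slight overlap, with 1 called lower. The part of RNA from any of these cell types in the Hk2 difference was not tested.

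**Figure D2:**
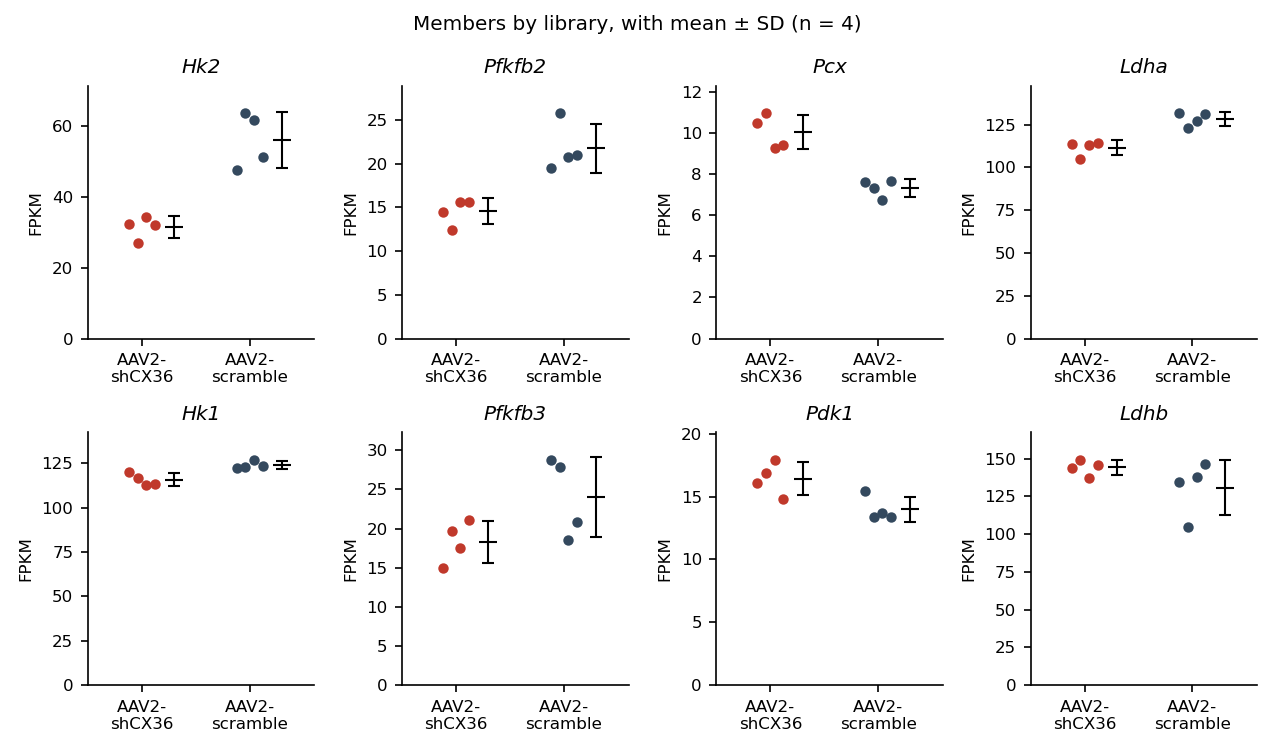
FPKM per library of 8 members, with AAV2-shCX36 on the left (red) and AAV2-scramble on the right (dark), and the mean ± SD of 4 libraries beside the points. Hk2, Pfkfb2, Ldha and Hk1 lie lower and Pcx higher in AAV2-shCX36 without overlap, while Pfkfb3, Pdk1 and Ldhb overlap.

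The other upper enzymes of glycolysis stayed close to the control level, and none of them passed. Gpi1, glucose-6-phosphate isomerase, had 377 ± 6.66 FPKM in AAV2-shCX36 and 373 ± 26.7 FPKM in AAV2-scramble. Of the phosphofructokinases, Pfkl (liver type) had 116 ± 0.451 and Pfkm (muscle type) 102 ± 2.63 FPKM in AAV2-shCX36, against 110 ± 5.39 and 91.6 ± 10.2 FPKM in AAV2-scramble. Pfkp, the platelet type, took both directions depending on the controls. It had 127, 120, 119 and 122 FPKM in AAV2-shCX36 1 to 4, against 155, 152, 97.7 and 97.5 FPKM in AAV2-scramble 1 to 4. Its difference was -0.01 over all libraries (adjusted p = 0.985), 0.32 without AAV2-scramble 1 and 2 (adjusted p = 0.0126) and -0.33 without AAV2-scramble 3 and 4 (adjusted p = 0.00941). Aldoa, the aldolase of most tissues, was the most abundant member, at 1127 ± 35.6 FPKM in AAV2-shCX36 and 1104 ± 119 FPKM in AAV2-scramble. Its difference was 0.04 (adjusted p = 0.870), but it passed under quantile normalization (0.31, adjusted p = 0.0305). Aldoc, the brain aldolase, had 119 ± 7.63 FPKM in AAV2-shCX36 and 122 ± 11.96 FPKM in AAV2-scramble. Tpi1, triosephosphate isomerase, had 758 ± 2.43 FPKM in AAV2-shCX36 and 711 ± 70.1 FPKM in AAV2-scramble.

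The lower enzymes were also close between groups, with differences from -0.03 to 0.21 and no call among 6. Eno2, the neuronal enolase, was the highest of these differences, with 394, 411, 400 and 404 FPKM in AAV2-shCX36 1 to 4. Values in AAV2-scramble 1 to 4 were 336, 297, 368 and 402 FPKM, so that only AAV2-scramble 4 reached the AAV2-shCX36 range (adjusted p = 0.233). It passed without AAV2-scramble 3 and 4 (difference 0.35, adjusted p = 0.0181) and under quantile normalization (0.25, adjusted p = 0.0333). Eno1, the ubiquitous enolase, had 771 ± 32.6 FPKM in AAV2-shCX36 and 790 ± 46.1 FPKM in AAV2-scramble. Eno2 was 32.9% to 35.9% of both enolases in AAV2-shCX36 and 28.9% to 32.4% in AAV2-scramble. Summed ganglion cell markers had 2509 to 2698 FPKM in AAV2-shCX36 and 1505 to 2594 FPKM in AAV2-scramble, with the lowest value, as for Eno2, in AAV2-scramble 2.

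Pkm, pyruvate kinase, had 395 ± 4.78 FPKM in AAV2-shCX36 and 375 ± 36.9 FPKM in AAV2-scramble, and Pgk1, phosphoglycerate kinase, 374 ± 7.21 FPKM in AAV2-shCX36 and 382 ± 38.5 FPKM in AAV2-scramble. Phosphoglycerate mutase Pgam1 had 213 ± 9.43 FPKM in AAV2-shCX36 and 205 ± 14.7 FPKM in AAV2-scramble. Gapdh, which oxidises glyceraldehyde phosphate, had 104 ± 6.03 FPKM in AAV2-shCX36 and 97.8 ± 5.76 FPKM in AAV2-scramble. Gapdh has 78 near-identical gene models, Pgk1 4, Ldha 4 and Eno1 3, counted as at least 95% identity over 200 bases, so their absolute FPKM depends on how shared reads were counted and is uncertain. Over the 15 enzymes from Hk1 to Pkm the median difference was 0.04, and Hk2 was the only call in either direction. The spread within AAV2-scramble exceeded that within AAV2-shCX36 for most of these genes, and AAV2-scramble 2 was the lowest control for all of them except Hk1, Hk2 and Pfkp. Exons overlap on opposite strands for Hk1 and Hk1os, Pfkm and Senp1, Pfkp and Pitrm1, Tpi1 and Spsb2, Gapdh and Iffo1, and Pdha1 and Map3k15. Slc2a1, Gpi1, Mpc1 and Slc16a7 also have such an overlap. The strand setting of the counting is not stated, so whether reads from these shared stretches were told apart is not known. On the same strand, exons of Pfkm overlap those of Gm26513, and exons of Pkm those of Gm49759.

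**Figure D3:**
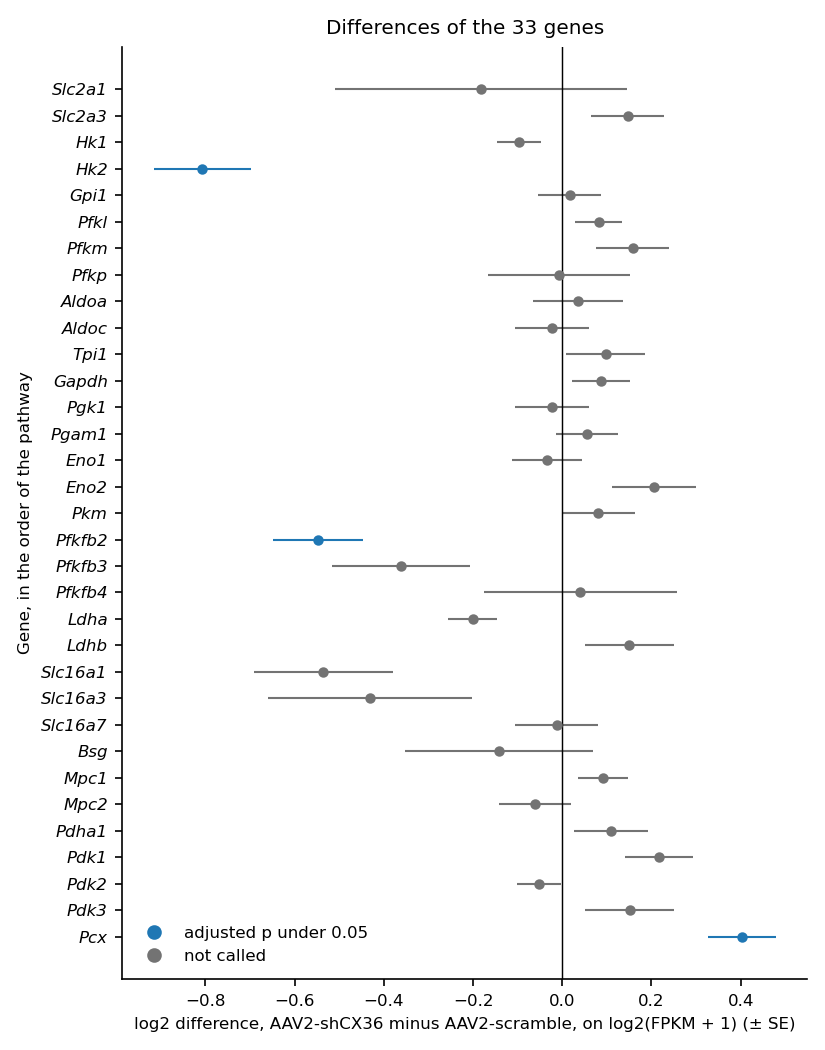
Differences of the 33 tested members on the log2(FPKM + 1) scale, AAV2-shCX36 minus AAV2-scramble, with the moderated standard error, in the order of the pathway. Hk2 (-0.81), Pfkfb2 (-0.55) and Pcx (0.40) passed, while the other 14 glycolytic enzymes lie between -0.10 and 0.21.

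Of the 3 tested PFKFB enzymes, which set the level of the activator of phosphofructokinase, Pfkfb2 fell and the others did not pass. Pfkfb2 (chromosome 1, 130689182 to 130729253, minus strand), the form known from heart, had 14.5, 12.4, 15.6 and 15.6 FPKM in AAV2-shCX36 1 to 4. Its AAV2-scramble 1 to 4 values were 19.5, 25.8, 20.8 and 20.9 FPKM. The groups did not overlap, and Pfkfb2 fell to 66.8% of the control mean (difference -0.55 ± 0.10, adjusted p = 0.0213). It did not pass without AAV2-shCX36 1, 2 or 3 or AAV2-scramble 3 (adjusted p of 0.0685, 0.0627, 0.0522 and 0.0532), without AAV2-shCX36 1 and 4 (0.142), or with no filter on low values (0.0514). The rod, cone, Müller glia and horizontal cell sums were lower in AAV2-shCX36 without overlap, as were Pfkfb2 and Hk2. Pfkfb2 and the Müller glia sum were both lowest in AAV2-shCX36 2 and highest in AAV2-scramble 2. The part of that RNA in the Pfkfb2 difference was not tested. The exons of Pfkfb2 overlap those of Yod1 on the opposite strand, which had 2.16 to 3.48 FPKM in AAV2-shCX36 and 2.63 to 3.39 FPKM in AAV2-scramble. They also overlap those of the gene model Gm29427 on the same strand, which is near-identical by the measure above and has no FPKM here. The absolute FPKM of Pfkfb2 therefore depends on how shared reads were counted and is uncertain.

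Pfkfb3, the form with the strongest kinase activity, had 14.9, 19.6, 17.6 and 21.1 FPKM in AAV2-shCX36 1 to 4, against 28.8, 27.9, 18.5 and 20.8 FPKM in AAV2-scramble 1 to 4. Only AAV2-scramble 1 and 2 lay above the AAV2-shCX36 range (difference -0.36 ± 0.16, adjusted p = 0.209). The difference was -0.11 without those 2 controls (adjusted p = 0.650) and -0.62 without AAV2-scramble 3 and 4 (adjusted p = 0.0112). Pfkfb4 had 3.29 ± 0.335 FPKM in AAV2-shCX36 and 3.32 ± 1.25 FPKM in AAV2-scramble (adjusted p = 0.934).

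None of the 6 tested lactate genes passed, and the share of the A chain in lactate dehydrogenase was lower in every AAV2-shCX36 library. Ldha (chromosome 7, 46841475 to 46855627, plus strand), the chain that favours lactate formation, had 114, 105, 113 and 114 FPKM in AAV2-shCX36 1 to 4. In AAV2-scramble 1 to 4 it had 132, 123, 127 and 131 FPKM. The groups did not overlap, but the difference of -0.20 ± 0.05 fell short of the threshold (adjusted p = 0.0716, and 0.0557 to 0.202 with single libraries left out). Under quantile normalization it was -0.23 with an adjusted p of 0.0215. Ldhb, the chain that favours lactate use, had 144 ± 5.03 FPKM in AAV2-shCX36 and 131 ± 18.1 FPKM in AAV2-scramble (adjusted p = 0.397). Ldha made up 41.3% to 45.1% of the FPKM of both chains in AAV2-shCX36 and 47.3% to 54.0% in AAV2-scramble, without overlap, while their sum was 256 ± 4.43 FPKM in AAV2-shCX36 and 259 ± 21.6 FPKM in AAV2-scramble.

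**Figure D4:**
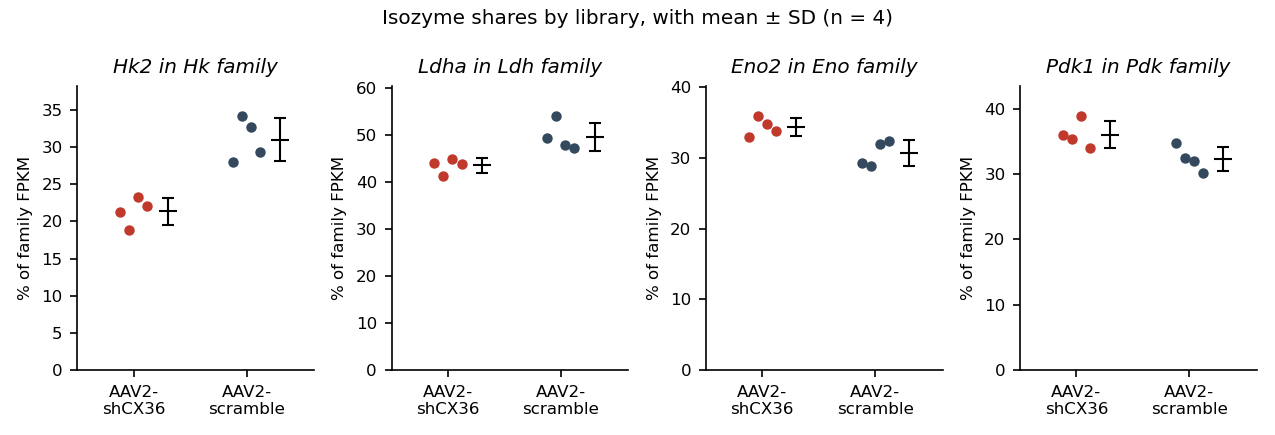
Share of Hk2, Ldha, Eno2 and Pdk1 in the summed FPKM of their families, per library, with AAV2-shCX36 left (red) and AAV2-scramble right (dark) and the mean ± SD of 4 libraries. The shares of Hk2 and Ldha are lower and that of Eno2 higher in AAV2-shCX36 without overlap, and that of Pdk1 overlaps.

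The ranges of the monocarboxylate transporters and basigin overlapped between groups. Slc16a1 (MCT1, which carries lactate and pyruvate) had 19.2, 16.4, 21.7 and 27.99 FPKM in AAV2-shCX36 1 to 4. In AAV2-scramble 1 to 4 it had 31.8, 37.0, 28.1 and 27.2 FPKM. AAV2-shCX36 4 lay within the control range and the other 3 below it (difference -0.54 ± 0.16, adjusted p = 0.0894). Slc16a1 passed without AAV2-shCX36 4 (-0.67, adjusted p = 0.0421) and without AAV2-scramble 3 and 4 (-0.69, adjusted p = 0.0266). AAV2-shCX36 4 also had the most Cldn5, a tight junction gene of endothelium. Cldn5 had 63.7 FPKM there, against 29.3 to 35.2 FPKM in the rest of that group. In AAV2-scramble 1 and 2 Cldn5 had 48.7 and 59.6 FPKM. AAV2-scramble 3 and 4 had the least Cldn5, at most 15.1 FPKM, but their Slc16a1 was close to that of AAV2-shCX36 4. The part of vessel RNA in the Slc16a1 values was not tested.

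Slc16a3 (MCT4, the lactate exporter of glycolytic cells) had 6.07 to 8.21 FPKM in AAV2-shCX36, against 14.3, 11.6, 5.80 and 7.996 FPKM in AAV2-scramble 1 to 4 (difference -0.43, adjusted p = 0.299). Its difference was -0.25 without AAV2-scramble 1 (adjusted p = 0.537), -0.02 without AAV2-scramble 1 and 2 (adjusted p = 0.962) and -0.85 without AAV2-scramble 3 and 4 (adjusted p = 0.00468). Bsg, basigin, the chaperone of these transporters, had 321, 275, 290 and 412 FPKM in AAV2-shCX36 1 to 4. The AAV2-scramble 1 to 4 libraries had 448, 466, 283 and 264 FPKM, the same pattern as Slc2a1, with AAV2-scramble 1 and 2 and AAV2-shCX36 4 highest (adjusted p = 0.729). Bsg had a difference of 0.23 without AAV2-scramble 1 and 2 (adjusted p = 0.379) and -0.51 without AAV2-scramble 3 and 4 (adjusted p = 0.0408). Slc16a7 (MCT2, a high-affinity importer of neurons) was scarce, at 1.56 ± 0.04995 FPKM in AAV2-shCX36 and 1.58 ± 0.155 FPKM in AAV2-scramble. Slc16a8 was at most 0.174 FPKM in AAV2-shCX36 and 0.0721 FPKM in AAV2-scramble. Rpe65, a pigment epithelium gene, was at 0 in 7 of 8 libraries and at 0.0135 FPKM in AAV2-scramble 3. Best1 of the same marker list had 0.493 to 2.08 FPKM over the 8 libraries. The sum of 8 pigment epithelium markers was 7.83 FPKM in AAV2-shCX36 1 and 2.67 to 3.34 FPKM in each other library.

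**Figure D5:**
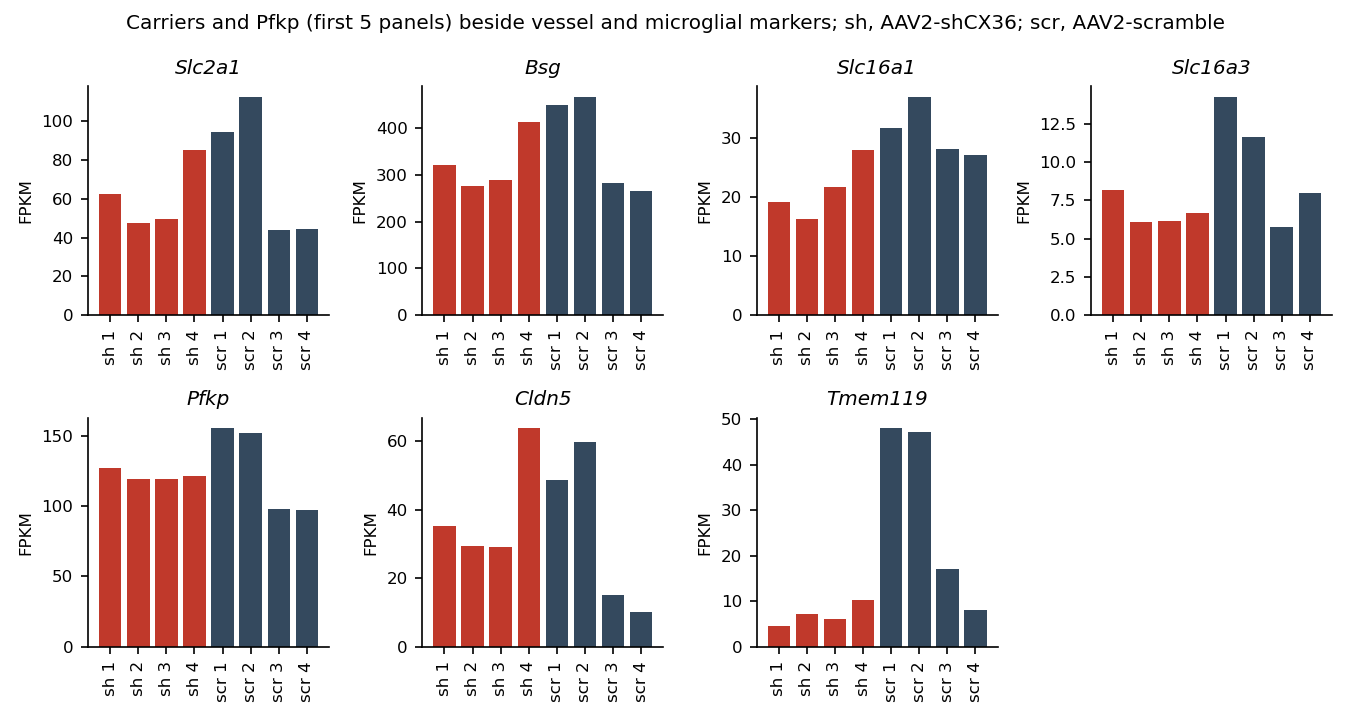
FPKM per library of 4 carrier genes and Pfkp beside Cldn5 (endothelium) and Tmem119 (microglia), with the 4 AAV2-shCX36 libraries (sh, red) left of the 4 AAV2-scramble libraries (scr, dark). Slc2a1, Bsg and Cldn5 are highest in AAV2-shCX36 4 and AAV2-scramble 1 and 2, and Pfkp is high in AAV2-scramble 1 and 2 and lowest in AAV2-scramble 3 and 4.

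Among the genes of pyruvate entry, pyruvate carboxylase rose. Pcx (chromosome 19, 4510472 to 4621752, plus strand), which makes oxaloacetate from pyruvate and in brain is mainly an astrocyte enzyme, had 10.5, 10.96, 9.25 and 9.43 FPKM in AAV2-shCX36 1 to 4. In AAV2-scramble 1 to 4 it had 7.62, 7.32, 6.73 and 7.65 FPKM. All AAV2-shCX36 values lay above all control values, and the mean was 137% of the control mean (difference 0.40 ± 0.08, adjusted p = 0.0226). It did not pass without AAV2-shCX36 1 or 2 or AAV2-scramble 3 (adjusted p of 0.0813, 0.0793 and 0.0622) or without AAV2-shCX36 1 and 4 (0.181). Glial markers were mixed. The Müller glia sum was lower in AAV2-shCX36, as given above for Hk2. Apoe, Dkk3 and Vim of that list overlapped, Apoe with 109 to 168 FPKM in AAV2-shCX36 and 75.0 to 174 FPKM in AAV2-scramble. The sum of 4 astrocyte markers was 4.40 to 8.99 FPKM in AAV2-shCX36 and 2.01 to 8.30 FPKM in AAV2-scramble. All 4 overlapped between groups, and only 1 reached 1 FPKM in every library. Gfap had 2.30 to 5.65 FPKM in AAV2-shCX36 and 0.339 to 2.83 FPKM in AAV2-scramble. Aldh1l1 had 1.30 to 3.33 and S100b 0.609 to 1.77 FPKM in AAV2-shCX36, against 1.11 to 2.65 and 0.365 to 2.77 FPKM in AAV2-scramble. Pax2 had at most 0.250 FPKM in AAV2-shCX36 and 0.199 FPKM in AAV2-scramble. The part of glial RNA in the Pcx difference was not tested.

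The remaining members of this step did not pass. Pdk1, a kinase that switches pyruvate dehydrogenase off, had 16.1, 16.9, 17.95 and 14.8 FPKM in AAV2-shCX36 1 to 4, against 15.5, 13.4, 13.7 and 13.3 FPKM in AAV2-scramble 1 to 4. The ranges met through AAV2-shCX36 4 and AAV2-scramble 1 (difference 0.22 ± 0.08, adjusted p = 0.142). Pdk2, the most abundant kinase of this family, had 22.1 ± 0.493 FPKM in AAV2-shCX36 and 22.9 ± 0.625 FPKM in AAV2-scramble, and Pdk3, another of these kinases, had 7.01 ± 0.755 FPKM in AAV2-shCX36 and 6.22 ± 0.756 FPKM in AAV2-scramble. Pdha1, the catalytic subunit of pyruvate dehydrogenase, had 63.7 ± 1.65 FPKM in AAV2-shCX36 and 59.3 ± 7.35 FPKM in AAV2-scramble (adjusted p = 0.472). It passed without AAV2-scramble 3 and 4 (difference 0.24, adjusted p = 0.0223) and had a difference of -0.02 without AAV2-scramble 1 and 2 (adjusted p = 0.881). The carrier that brings pyruvate into mitochondria pairs Mpc1, at 17.4 ± 0.685 FPKM in AAV2-shCX36 and 16.3 ± 0.611 FPKM in AAV2-scramble, with Mpc2, at 38.5 ± 3.09 FPKM in AAV2-shCX36 and 40.2 ± 3.40 FPKM in AAV2-scramble.

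Genes that branch from or surround the pathway were counted in 9 lists with 106 tested genes. Of these 2 rose and 2 fell, against 2.24% and 2.52% of all genes, and the median difference was 0.02. No gene passed among 9 of the pentose phosphate pathway, 7 of the pyruvate dehydrogenase complex, 16 of the citric acid cycle, 7 of the NADH shuttles, 15 other isoforms and transporters, or 12 glucose regulators. In the citric acid cycle 15 of 16 genes were higher, against 52.4% of all genes, with a median of 0.08. Without AAV2-scramble 1 and 2, 9 of the 15 then tested were higher, against 59.0% of all genes, with a median of 0.01, so that the tally rests on those 2 controls. Ogdh, a subunit of oxoglutarate dehydrogenase, had 52.4 ± 1.03 FPKM in AAV2-shCX36 and 44.3 ± 3.07 FPKM in AAV2-scramble (adjusted p = 0.0561), and Dlst of the same complex 41.0 ± 0.867 FPKM in AAV2-shCX36 and 36.6 ± 1.25 FPKM in AAV2-scramble (adjusted p = 0.103).

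Both rises were in gluconeogenesis and the serine branch, where all 6 genes were higher, against 52.4% of all genes, with a median of 0.30. Phgdh, the first enzyme of serine synthesis from a glycolytic intermediate, had 26.9, 21.8, 28.5 and 29.7 FPKM in AAV2-shCX36 1 to 4. Its AAV2-scramble 1 to 4 values were 13.4, 13.1, 15.8 and 22.4 FPKM, so that AAV2-scramble 4 overlapped the AAV2-shCX36 range (difference 0.71 ± 0.16, adjusted p = 0.0434). Pck2, mitochondrial phosphoenolpyruvate carboxykinase, had 13.5 ± 0.418 FPKM in AAV2-shCX36 and 10.3 ± 1.02 FPKM in AAV2-scramble (difference 0.36 ± 0.07, adjusted p = 0.0324). Of the single omissions, that of AAV2-scramble 4 alone left both called, and the highest adjusted p was 0.118 for Phgdh and 0.103 for Pck2. Without AAV2-scramble 1 and 2 neither passed and the list held 0 calls. All 6 were still higher then, against 59.0% of all genes, with a median of 0.22. Without AAV2-scramble 3 and 4, 4 of the 6 were called higher.

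Of 17 glycogen genes 1 fell, with a median of -0.01. Pygm, the muscle form of glycogen phosphorylase, had 60.7, 50.6, 64.2 and 66.7 FPKM in AAV2-shCX36 1 to 4, against 94.4, 106, 84.1 and 72.8 FPKM in AAV2-scramble 1 to 4 (difference -0.55 ± 0.13, adjusted p = 0.0423). Of the single omissions, that of AAV2-scramble 4 alone left it called, and the highest adjusted p among them was 0.120. Without AAV2-scramble 1 and 2 Pygm did not pass, with 0 glycogen genes called lower and 1 called higher. Without AAV2-scramble 3 and 4, 3 were called lower and 1 higher. Of 17 hypoxia response genes 14 were lower, against 47.6% of all genes, with a median of -0.17, and 1 fell. Without AAV2-scramble 1 and 2 the tally turned round, with 6 lower and 11 higher, a median of 0.05 against 0.04 for all genes, and 1 call in each direction. Ndrg1, a stress-induced gene used as a hypoxia marker, had 59.4, 70.5, 61.5 and 94.9 FPKM in AAV2-shCX36 1 to 4 (71.6 ± 16.3). Values in AAV2-scramble 1 to 4 were 127, 137, 114 and 126 FPKM, all above the AAV2-shCX36 range (difference -0.83 ± 0.14, adjusted p = 0.0143). It did not pass without AAV2-shCX36 2 or 3, with an adjusted p of up to 0.0521.

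In lists without a call, the genes with the smallest p were the following. Slc16a6, a relative of the monocarboxylate transporters, had 6.20 ± 0.677 FPKM in AAV2-shCX36 and 8.79 ± 1.36 FPKM in AAV2-scramble (adjusted p = 0.0603). Emb, embigin, which like basigin chaperones these transporters, had 62.3 ± 6.15 FPKM in AAV2-shCX36 and 45.3 ± 10.3 FPKM in AAV2-scramble (adjusted p = 0.118). Taldo1, transaldolase, had 50.2 ± 1.78 and Tkt, transketolase, 84.3 ± 6.20 FPKM in AAV2-shCX36, against 55.2 ± 2.88 and 74.9 ± 6.24 FPKM in AAV2-scramble (adjusted p = 0.203 and 0.239). Dlat and Dld, which complete pyruvate dehydrogenase, had 21.7 ± 0.490 and 49.0 ± 1.47 FPKM in AAV2-shCX36, against 19.5 ± 1.58 and 45.4 ± 1.07 FPKM in AAV2-scramble (adjusted p = 0.219 and 0.222). The glycerol phosphate shuttle genes Gpd2 and Gpd1l had 7.24 ± 0.347 and 16.6 ± 0.805 FPKM in AAV2-shCX36, against 5.71 ± 0.506 and 14.05 ± 0.773 FPKM in AAV2-scramble (adjusted p = 0.0618 and 0.0783). Among regulators, the forkhead factor gene Foxo1 had 2.36 ± 0.395 and the orphan receptor gene Esrrg 8.38 ± 0.742 FPKM in AAV2-shCX36, against 3.71 ± 0.823 and 12.9 ± 3.56 FPKM in AAV2-scramble (adjusted p = 0.1004 and 0.109).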

How the data were processed

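Per the labels' protocols, total RNA (QIAGEN RNeasy Micro) was read from both ends for 150 bp on a NovaSeq instrument. The submitters' processing notes name fastp, HISAT2, HTSeq, R 3.2.0 and DESeq2 and the builds GRCm38 and mm10; strand setting and annotation are not given in the sources used here. The values are FPKM, deposited by the authors for 24860 symbols in 8 libraries, with 0 value columns left unmatched. They hold no counts, so no count model was run and no counting interval is given.

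Groups came from the sample titles (n = 4 each). Animals are not tied to libraries in the labels, and p-values therefore reflect only the spread between these libraries. The 12858 genes averaging 1 FPKM or more were fitted on log2(FPKM + 1) with limma 3.58.1 (lmFit, eBayes with trend, R 4.3.3), Benjamini-Hochberg adjusted over all of them, and called at an adjusted p under 0.05. Fold changes on this scale understate the change of low genes. The script was tested on simulated data. Members, lists and alternatives were chosen with earlier results of these data known. Every member is named. Called members, then those with an unadjusted p under 0.05, have full values. Of other lists, called genes (up to 4), or else the 2 with the smallest p, are named, and genes such as Pfkp, Slc2a1, Bsg, Slc16a3 and Eno2 were given fuller values after these were seen. Marker lists were retinal and other cell types; 2 marker genes are not reported here.

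Positions are from GENCODE M21 (GRCm38), where all 36 symbols matched, and promoters from RefSeq (GRCm38.p6). Near-identical gene models were counted with blastn 2.17.0. Same-numbered libraries of the groups did not deviate together (correlations between -0.302 and 0.227), so replicate numbers were not treated as pairs. Alternatives were pseudocounts of 0.1 and 0.5, no filter or one of 5 FPKM, rescaling to TPM, median-of-ratios scaling, quantile normalization, other variance models, library weights, a replicate block, and omission of single libraries and of 3 pairs of libraries.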

Additional observations from a re-analysis of the deposited data

Results flagged for a closer look

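In 74 groups of 4 libraries (37 genes), 2 had a library far from the others of its group, where chance alone flags about 1 in 20. Ldha had 105 FPKM in AAV2-shCX36 2, against 113 to 114 FPKM in the other AAV2-shCX36 libraries, and that library was on the side away from the controls. Pdk1 had 15.5 FPKM in AAV2-scramble 1, against 13.3 to 13.7 FPKM in the other AAV2-scramble libraries, which brought it into the AAV2-shCX36 range.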

How the results depend on the processing

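Pcx was the rise and Hk2 and Pfkfb2 the falls under both other pseudocounts, the filter of 5 FPKM, TPM, median-of-ratios scaling, no trend, robust fitting and library weights. Member calls numbered 0 to 1 higher and 1 to 3 lower with single libraries left out. They were 3 higher and 3 lower under quantile normalization, 1 and 1 with no filter, 2 and 2 with AAV2-scramble 1 and 2 omitted, 3 and 8 with AAV2-scramble 3 and 4 omitted, and 0 and 0 with AAV2-shCX36 1 and 4 omitted. With the replicate block, in which the numbers are not known to pair libraries, they were 0 and 1, Pcx (adjusted p = 0.0844) and Pfkfb2 (0.102) no longer passing. No called member changed sign in any of the 22 alternatives. Related genes numbered 0 to 5 higher and 0 to 9 lower with single libraries left out. They were 0 and 1 with no filter, 4 and 2 under TPM, 1 and 3 under median-of-ratios scaling, 1 and 5 under quantile normalization, 1 and 1 without trend, 4 and 2 with library weights, 1 and 1 with the replicate block, 3 and 1 when AAV2-scramble 1 and 2 were omitted, 14 and 21 when it was AAV2-scramble 3 and 4, and 0 and 1 when it was AAV2-shCX36 1 and 4. The Gjd2 difference of -0.70 was -1.21 without AAV2-scramble 3 and 4 (adjusted p = 0.00083).

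Some uncalled members changed sign. Among them were members with differences near 0 and others with larger ones, such as Slc2a1 (-0.18) and Bsg (-0.14). Without AAV2-scramble 1 and 2 the values were 0.42 for Slc2a1, 0.32 for Pfkp, -0.073 for Aldoa, -0.0083 for Pkm, 0.23 for Bsg and -0.021 for Pdha1. Without AAV2-scramble 3 and 4 they were 0.0017 for Aldoc, 0.046 for Pgk1, 2.58e-05 for Eno1, -0.19 for Pfkfb4, 0.062 for Slc16a7 and 0.0092 for Mpc2. Under library weights they were -0.0065 for Gpi1, 0.010 for Pfkp and -0.0068 for Pfkfb4, under TPM 0.0024 for Pfkp, and under quantile normalization 0.058 for Pgk1 and 0.041 for Eno1. With single libraries left out the ranges were -0.38 to 0.060 for Slc2a1, -0.024 to 0.057 for Gpi1, -0.12 to 0.11 for Pfkp, -0.039 to 0.087 for Aldoa, -0.083 to 0.019 for Aldoc, -0.094 to 0.019 for Pgk1, -0.20 to 0.16 for Pfkfb4 and -0.041 to 0.018 for Slc16a7. The cause of these changes was not tested. The table gives no counts, so how depth limits low members such as Slc16a7 and Pfkfb4 is not known.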
